A study of Sus scrofa with 3 samples.

Results

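Interferon-stimulated genes are the genes that cells switch on when interferons, the cytokines of antiviral defence, bind their receptors. The receptors signal through JAK kinases to transcription factors such as STAT2 and IRF9, which enter the nucleus and bind a response element in the promoters of these genes. Their products sense or cut viral RNA, block virus entry and budding, tag proteins with the ubiquitin-like protein ISG15, or feed peptides to antigen presentation; in the kidney, tubular, endothelial and resident immune cells can all express them. The members described here are 48 named genes of this kind, taken by symbol from the table. Of these, 42 had a row under their own symbol among the 34570 genes listed, and RSAD2, IRF9 and SP110 were matched to rows under other names through RefSeq and stand outside the counts. IFI6, EIF2AK2 and LGALS3BP were not analysed here.

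RNA came from kidneys of Wuzhishan pigs, a Chinese miniature breed, 6 to 7 months old, and every group was fed a diet high in fat and cholesterol. The groups were castrated males given testosterone (CMT), castrated males without it (CM) and intact males (IM). The RNA of 3 pigs per group was pooled evenly into 1 library, so the data are 3 libraries from 9 pigs and no group has a replicate. A pool does not show whether its 3 pigs shared a level, and no difference below has a replicate check or a p-value.

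The libraries summed to 13601475 counts in CMT, 18503537 in CM and 16459771 in IM. Levels are given as CPM, counts scaled to library size with TMM, a method that sets library sizes by the bulk of the genes, and not per length, so they compare libraries within a gene and not 1 gene with another. A fold is the ratio of scaled counts, followed in brackets by its exact 95% interval, which covers counting error only. Genes are called, as higher or lower, where the whole of that interval lies beyond 2-fold; a lower bar of 1.5-fold is used beside it. The comparison covered the 15472 genes with a mean of at least 1 CPM, among them all 42 members with a row of their own. Of all compared genes, 0.595% to 1.84% were called in each direction of a comparison, the background for each count of calls below. Of 12 kidney markers, 9 had a row and none was at 0 in any library; they summed to 3222 CPM in CMT, 3641 in CM and 3095 in IM. In bulk RNA, fewer cells of a type and less RNA per cell cannot be told apart.

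Interferon-stimulated genes were higher in both castrated pools than in the intact pool, and their sum was highest in the pool given testosterone. The 42 members summed to 1517 CPM in CMT, 1255 CPM in CM and 777 CPM in IM. As folds of these sums, CM stood at 1.61 (1.58 to 1.65) over IM, CMT at 1.95 (1.91 to 1.995) over IM and CMT at 1.21 (1.19 to 1.23) over CM. ISG15, MX1, OAS1 and OAS2 made up much of the sum, and were left out of it in an alternative sum chosen after their values were seen. The remaining 38 members then summed to 899.6 CPM in CMT, 842 CPM in CM and 549 CPM in IM. The order of the pools was the same, but CMT and CM lay closer, with a fold of CMT over CM of 1.07 (1.04 to 1.095). As shares of total counts, without TMM, the 38 members made up 0.0875% in CMT, 0.0860% in CM and 0.0552% in IM.

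In CM against IM, 5 of the 42 members were called higher, which is 11.9%, beside 1.2% of all compared genes. None was called lower, beside 1.52% of all compared genes. At the 1.5-fold bar 10 members were higher (23.8%), beside 2.81% of all compared genes, and 0 were lower, beside 3.42%. The median log2 fold of the members was 0.68, against -0.01 over all compared genes, and 39 of 42 members lay above 0, a share of 92.9% against 49.3% of all compared genes.

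In CMT against CM, 0 of 42 members were called higher and 0 lower, beside 1.84% and 1.11% of all compared genes. At the 1.5-fold bar 2 members were higher and 1 was lower, which is 4.76% and 2.38% of the members, beside 3.68% and 2.61% of all compared genes. The median log2 fold was 0.10, against 0.00 over all compared genes, and 28 of 42 members lay above 0, a share of 66.7% against 49.3% of all compared genes. The shares called lie near those of the whole table.

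In CMT against IM, 8 of 42 members were called higher (19.0%), beside 0.905% of all compared genes, and 0 lower, beside 0.595%. At 1.5-fold 20 were higher (47.6%), beside 2.3% of all compared genes, and 0 were lower, beside 1.44%. The median log2 fold was 0.85, against -0.01 over all compared genes, and 41 of 42 members lay above 0, a share of 97.6% against 48.2% of all compared genes. This comparison shares the IM library with that of CM against IM, and the CMT library with that of CMT against CM, so the 3 are not independent of each other.

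**Figure D1:**
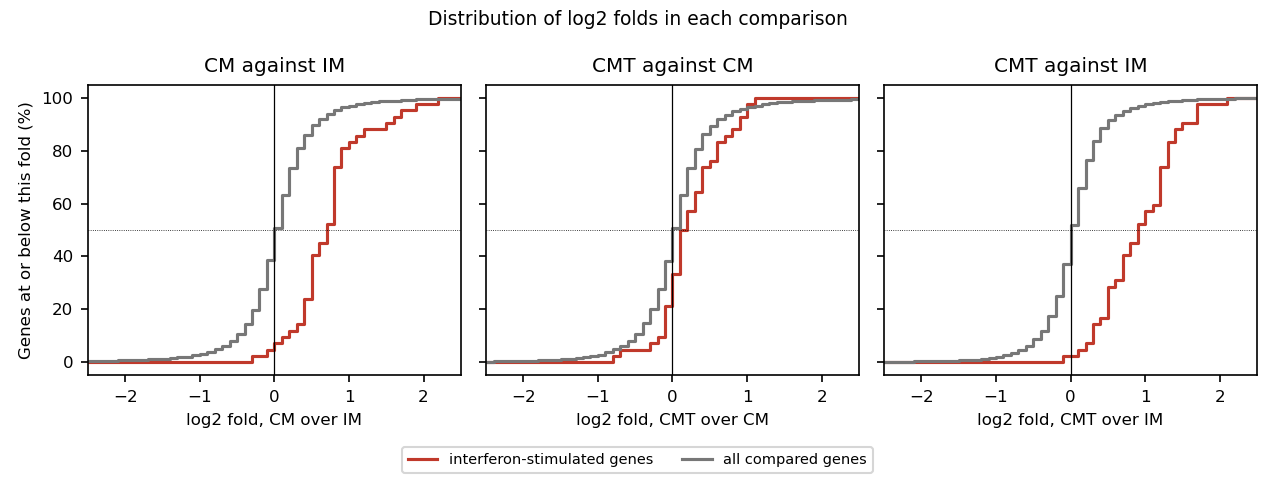
Cumulative share of genes (vertical axis, percent) at or below each log2 fold (horizontal axis) in the 3 comparisons, for the 42 interferon-stimulated genes (red) and the 15472 compared genes (grey). The red curve lies to the right of the grey one for CM over IM and for CMT over IM, with medians of 0.68 and 0.85, and close to it for CMT over CM, with a median of 0.10.

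The order of the 3 pools was alike for most members. CMT was highest, CM next and IM lowest for 26 of the 42, a share of 61.9%, an order that 13.5% of all compared genes had. Another 13 members had CM highest, CMT next and IM lowest (31.0%, against 17.2% of all compared genes). IM was therefore the lowest pool for 39 members. The exceptions were IRF1 and PSMB9, lowest in CM, and SAMD9, lowest in CMT. Neighbouring pools in these orders often differed by less than counting error, and the intervals below show which.

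**Figure D2:**
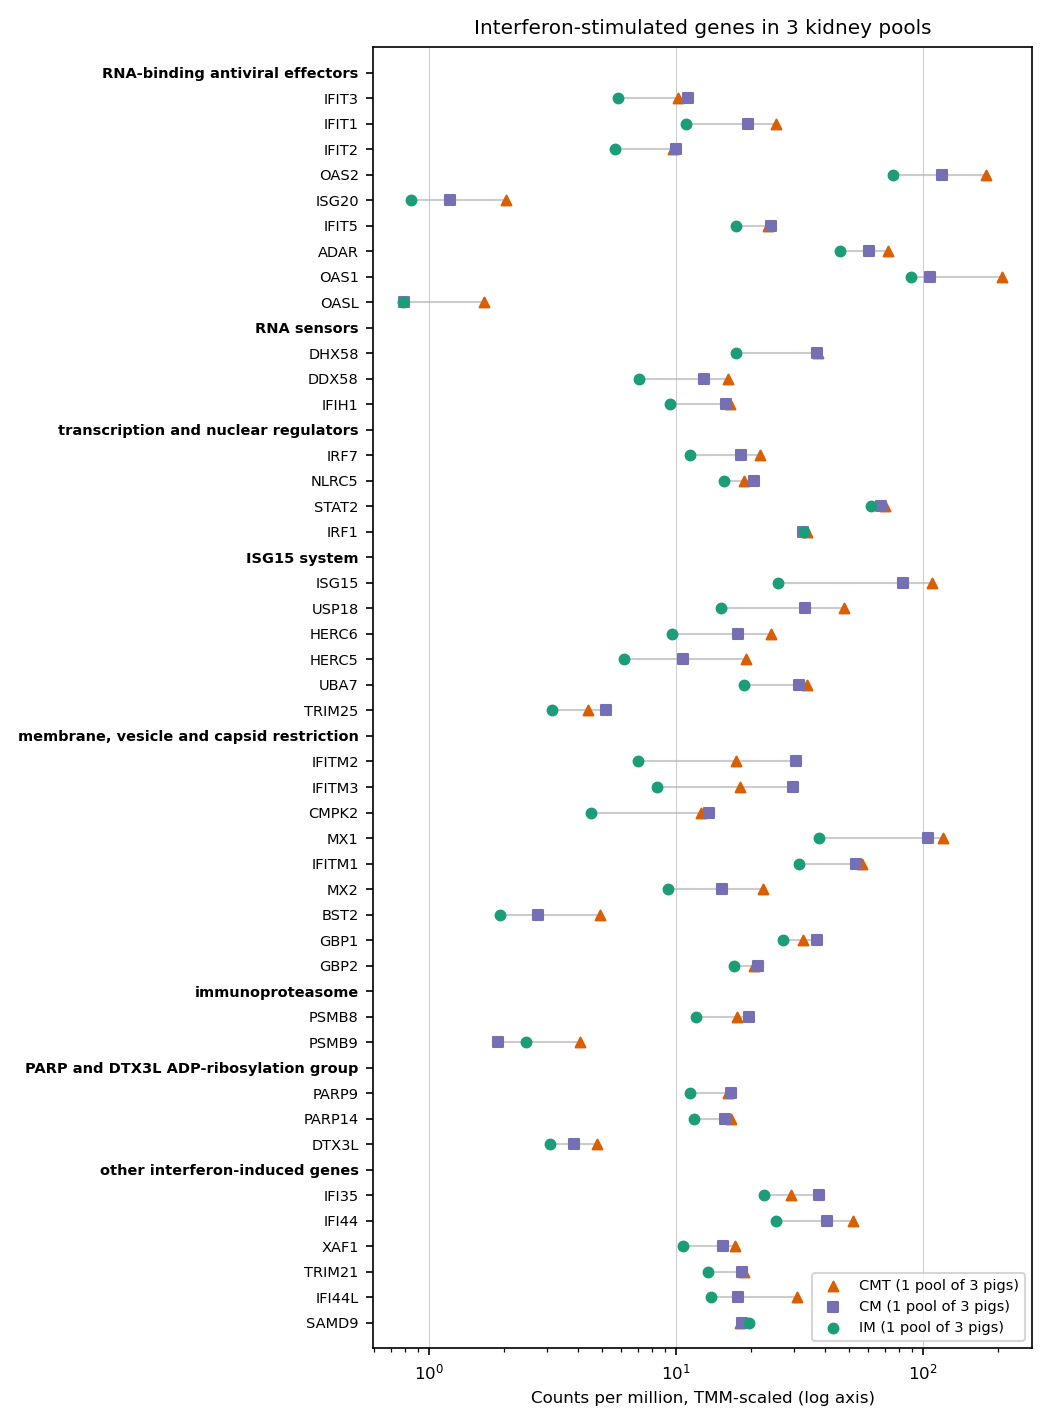
TMM-scaled CPM (log axis) of each of the 42 members in CMT (triangles), CM (squares) and IM (circles), 1 pool of 3 pigs each, grouped by role and ordered within a role by the fold of CM over IM. The IM circle is the leftmost point in 39 rows, and the CMT triangle is the rightmost in 28.

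The ISG15 system held the highest fold of CMT over IM. ISG15 is the ubiquitin-like protein that is joined to other proteins and is also secreted. It had 108 CPM in CMT, 82.5 CPM in CM and 25.8 CPM in IM, from 1434, 1559 and 427 counts in that order. Both castrated pools were high and IM low: the fold of CM over IM was 3.198 (2.87 to 3.57), that of CMT over IM 4.20 (3.77 to 4.69), both called, and that of CMT over CM 1.31 (1.22 to 1.41). The group of 6, which also holds the conjugating and removing enzymes, summed to 238 CPM in CMT, 181 CPM in CM and 78.8 CPM in IM.

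UBA7, the enzyme that activates ISG15 for transfer, had 33.9 CPM in CMT, 31.3 CPM in CM and 18.9 CPM in IM. Its fold was 1.66 (1.44 to 1.91) in CM over IM and 1.80 (1.55 to 2.08) in CMT over IM, short of a call in both. HERC5, the main ISG15 ligase of human cells, had 19.2 CPM in CMT, 10.7 CPM in CM and 6.16 CPM in IM. It was called higher in CMT than in IM at 3.12 (2.47 to 3.96), and CMT stood over CM by 1.80 (1.49 to 2.17). HERC6, its close relative and the main ISG15 ligase of mouse cells, had 24.2 CPM in CMT, 17.7 CPM in CM and 9.60 CPM in IM, with a called fold of 2.53 (2.08 to 3.07) in CMT over IM. These ligases thus showed the same 3 steps as ISG15, with IM lowest and CMT highest.

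USP18 cleaves ISG15 from its targets and damps signalling of the type I interferon receptor. It had 48.0 CPM in CMT, 33.3 CPM in CM and 15.2 CPM in IM. The fold of CMT over IM was 3.17 (2.73 to 3.68) and was called; that of CM over IM, 2.20 (1.90 to 2.56), was the nearest to a call among those that missed it in that comparison. TRIM25, a ubiquitin ligase that acts on the RNA sensor DDX58, had 4.38 CPM in CMT, 5.18 CPM in CM and 3.14 CPM in IM and was the lowest of the group by its fold of CM over IM, 1.65 (1.17 to 2.36).

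The group that holds the factors blocking viruses at membranes, vesicles or capsids gave 4 of the 5 calls in CM against IM. These were MX1, IFITM2, IFITM3 and CMPK2, of which CMPK2 does not act at those places. They are 4 of the 9 compared members of the group, beside 1.2% of all compared genes. In CMT against IM 2 of the 9 were called higher, beside 0.905% of all compared genes. MX1, a dynamin-like GTPase that traps viral nucleocapsids, had 119.8 CPM in CMT, 105 CPM in CM and 37.7 CPM in IM. Its fold was 2.78 (2.54 to 3.04) in CM over IM and 3.18 (2.90 to 3.49) in CMT over IM, both called. CMPK2, a mitochondrial nucleotide kinase, had 12.6 CPM in CMT, 13.6 CPM in CM and 4.53 CPM in IM, a fold of 3.001 (2.31 to 3.94) in CM over IM and of 2.79 (2.11 to 3.71) in CMT over IM. For CMPK2 the castrated pools did not differ beyond counting error, at 0.928 (0.759 to 1.13) for CMT over CM.

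The IFITM proteins sit in cell and endosome membranes and hinder virus fusion, and their genes are so alike that the counting may have shared or split their reads. IFITM2 had 17.5 CPM in CMT, 30.7 CPM in CM and 7.01 CPM in IM. IFITM3 had 18.2 CPM in CMT, 29.8 CPM in CM and 8.34 CPM in IM. Both were high in CM and in between in CMT, unlike ISG15 and MX1. In CM over IM, IFITM2 reached 4.38 (3.58 to 5.39) and IFITM3 3.57 (2.96 to 4.34), both called.

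In CMT over CM, IFITM2 stood at 0.571 (0.489 to 0.666), the only member lower there at the 1.5-fold bar, and IFITM3 at 0.611 (0.524 to 0.712). IFITM2 missed a call in CMT over IM narrowly, at 2.502 (1.99 to 3.15). IFITM1 had another pattern, with 56.7 CPM in CMT, 53.4 CPM in CM and 31.3 CPM in IM, so that its castrated pools were close, at 1.06 (0.965 to 1.17) for CMT over CM.

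MX2, the relative of MX1, had 22.4 CPM in CMT, 15.3 CPM in CM and 9.30 CPM in IM, with a fold of 2.40 (1.97 to 2.94) in CMT over IM. BST2, or tetherin, which holds budding virus at the cell surface, had 65, 52 and 32 counts in CMT, CM and IM, and the wide interval of its fold of CMT over IM, 2.54 (1.64 to 4.01), follows from those few counts. The guanylate-binding GTPases GBP1 and GBP2 were not called. GBP2 was lowest of the group by CM over IM, with 20.6 CPM in CMT, 21.5 CPM in CM and 17.2 CPM in IM and a fold of 1.25 (1.07 to 1.46).

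RSAD2 codes for viperin, an enzyme that makes a chain-terminating nucleotide, and was matched to the row IRG6 by a RefSeq synonym. It had 25.7 CPM in CMT, 16.9 CPM in CM and 6.70 CPM in IM. The folds of 2.52 (2.02 to 3.15) in CM over IM and 3.83 (3.08 to 4.79) in CMT over IM lay beyond the 2-fold rule, with IM lowest and CMT highest as for ISG15.

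Among genes whose products bind or degrade RNA, 2 of 9 were called, both higher in CMT against IM, beside 0.905% of all compared genes. OAS1 and OAS2 make short oligoadenylates when they bind double-stranded RNA. OAS1 had 208 CPM in CMT, 107 CPM in CM and 89.2 CPM in IM. CMT stood apart from both other pools: its fold over IM was 2.34 (2.19 to 2.49), called, and its fold over CM was 1.95 (1.85 to 2.07), the closest to a call in that comparison, whereas CM over IM was 1.20 (1.12 to 1.28). OAS2 had 180.3 CPM in CMT, 119.3 CPM in CM and 75.7 CPM in IM, with a called fold of 2.38 (2.22 to 2.55) in CMT over IM and 1.58 (1.47 to 1.69) in CM over IM.

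Some IFIT proteins, such as IFIT1, bind viral RNA by its end and block its translation. IFIT3 was highest of this group by CM over IM, with 10.2 CPM in CMT, 11.2 CPM in CM and 5.80 CPM in IM and a fold of 1.93 (1.51 to 2.48). IFIT1 had 25.2 CPM in CMT, 19.5 CPM in CM and 11.0 CPM in IM, and its fold of CMT over IM was 2.30 (1.91 to 2.77). IFIT2 and IFIT5 had CM over IM at 1.75 (1.36 to 2.27) and 1.39 (1.19 to 1.61). ADAR, which edits adenosines in double-stranded RNA, had 72.1 CPM in CMT, 60.6 CPM in CM and 46.1 CPM in IM.

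Counts of OASL and ISG20 were few and their intervals wide. OASL, an OAS relative without the synthetase activity in humans, had 22 counts in CMT, 15 in CM and 13 in IM. It was lowest of the group by CM over IM at 1.01 (0.449 to 2.31). CMT stood at 2.095 (1.04 to 4.34) over CM and 2.12 (1.02 to 4.575) over IM. With scaling by total counts both of these intervals reached below 1, to 0.989 and 0.987. ISG20, an exonuclease, had 27 counts in CMT, 23 in CM and 14 in IM. Its fold was 1.44 (0.71 to 3.02) in CM over IM, 1.68 (0.926 to 3.06) in CMT over CM and 2.41 (1.22 to 4.98) in CMT over IM.

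The 3 RNA sensors stood above IM in both castrated pools, and none was called. For 3 genes this lies near the shares of all compared genes called higher, 1.2% in CM against IM and 0.905% in CMT against IM. DHX58, also called LGP2, had 37.6 CPM in CMT, 37.3 CPM in CM and 17.4 CPM in IM. CM stood over IM by 2.14 (1.87 to 2.47) and CMT over IM by 2.16 (1.87 to 2.51), neither called at 2-fold and both beyond 1.5-fold. CMT over CM was 1.01 (0.898 to 1.13). DDX58, or RIG-I, had 16.2 CPM in CMT, 13.0 CPM in CM and 7.07 CPM in IM. IFIH1, or MDA5, was lowest of the 3 by CM over IM, with 16.6 CPM in CMT, 15.9 CPM in CM and 9.48 CPM in IM and a fold of 1.67 (1.38 to 2.04).

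None of the 4 transcription and nuclear regulators with a row of their own was called. For 4 genes this lies near the 0.595% to 1.84% of all compared genes called in each direction. IRF7, which amplifies interferon production, was highest of the group, with 21.8 CPM in CMT, 18.3 CPM in CM and 11.4 CPM in IM and folds of 1.60 (1.34 to 1.93) in CM over IM and 1.91 (1.58 to 2.30) in CMT over IM. STAT2 had 69.8 CPM in CMT, 67.5 CPM in CM and 61.4 CPM in IM, a fold of 1.10 (1.01 to 1.19) in CM over IM. IRF1, the factor typical of interferon gamma, was lowest, with 33.8 CPM in CMT, 32.6 CPM in CM and 32.9 CPM in IM and a fold of 0.992 (0.882 to 1.12) in CM over IM. NLRC5, the activator of MHC class I genes, had CM over IM at 1.33 (1.13 to 1.56). The row matched to IRF9 had 73.2 CPM in CMT, 61.7 CPM in CM and 42.9 CPM in IM, with a fold of 1.71 (1.55 to 1.88) in CMT over IM, and that matched to SP110, a nuclear body protein, had 16.3, 19.6 and 17.1 CPM in CMT, CM and IM.

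The immunoproteasome subunits PSMB8 and PSMB9 replace constitutive subunits and change the peptides made for MHC class I. They differed from each other in CM over IM and in CMT over CM. PSMB8 had 17.6 CPM in CMT, 19.8 CPM in CM and 12.02 CPM in IM. PSMB9 had 54 counts in CMT, 36 in CM and 41 in IM. The folds of CM over IM, 1.65 (1.38 to 1.97) for PSMB8 and 0.769 (0.478 to 1.23) for PSMB9, have intervals that do not overlap. In CMT over CM the intervals did not overlap either, at 0.890 (0.752 to 1.05) for PSMB8 and 2.14 (1.38 to 3.36) for PSMB9. The few counts of PSMB9 leave its intervals wide. In CMT over IM both lay above 1 with overlapping intervals, at 1.47 (1.21 to 1.78) for PSMB8 and 1.65 (1.08 to 2.54) for PSMB9. PARP9 and DTX3L, partners in a ubiquitin ligase complex, and PARP14, an ADP-ribosyltransferase, were not called: CM over IM was 1.46 (1.22 to 1.76) for PARP9, the highest of them, 1.33 (1.10 to 1.60) for PARP14 and 1.25 (0.865 to 1.83) for DTX3L, the lowest.

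Among the other interferon-induced genes, IFI35 was highest by CM over IM, with 29.2 CPM in CMT, 37.9 CPM in CM and 22.6 CPM in IM and a fold of 1.68 (1.48 to 1.90). CMT over CM for IFI35 was 0.769 (0.678 to 0.871). IFI44 and IFI44L, a pair of related genes, took the other direction there: IFI44L had 30.9 CPM in CMT, 17.8 CPM in CM and 13.9 CPM in IM and was, with OAS1, one of the 2 members higher in CMT than in CM at the 1.5-fold bar, at 1.74 (1.501 to 2.01). IFI44 had 51.9 CPM in CMT, 40.8 CPM in CM and 25.2 CPM in IM. SAMD9, an antiviral factor, was the lowest member of the group and differed between no pools beyond counting error, with 18.1 CPM in CMT, 18.4 CPM in CM and 19.8 CPM in IM. TRIM21, an antibody receptor of the cytosol, and XAF1, a partner of the apoptosis inhibitor XIAP, had CM over IM at 1.37 (1.15 to 1.62) and 1.45 (1.20 to 1.75).

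**Figure D3:**
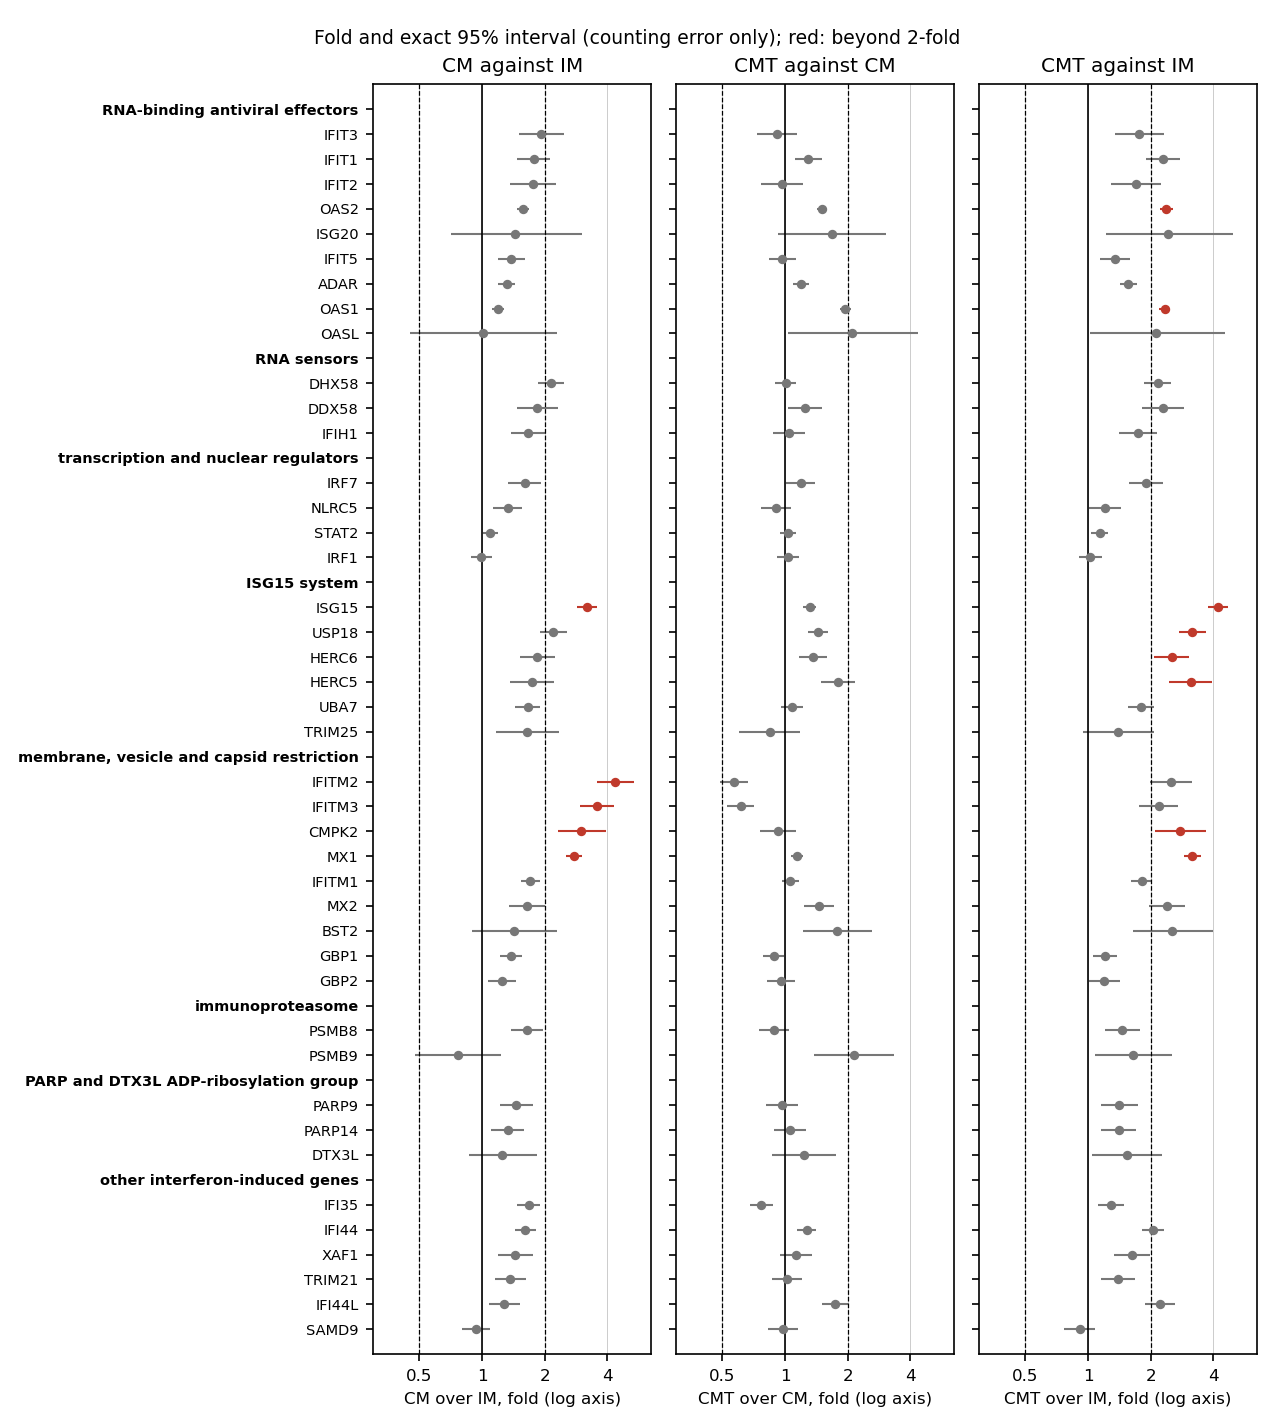
Fold with its exact 95% interval (log axis) for each of the 42 members for CM over IM, CMT over CM and CMT over IM; the solid line marks 1, the dashed lines 2-fold either way, and red points are called. Red points number 5 for CM over IM, 0 for CMT over CM and 8 for CMT over IM.

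The calls of the outer comparisons were ISG15, MX1, CMPK2, IFITM2 and IFITM3 in CM against IM and ISG15, MX1, CMPK2, OAS1, OAS2, USP18, HERC5 and HERC6 in CMT against IM. In CM against IM the called members nearest to the 2-fold rule were CMPK2 and MX1, and the nearest that missed it were USP18 and DHX58. In CMT against IM, HERC6 was the nearest inside, and IFITM2 and MX2 the nearest outside.

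Several members lie next to each other in the pig genome. By the gene order that RefSeq gives for the assembly Sscrofa11.1, used here for names and order alone, 13 pairs made of 23 members had at most 1 other coding gene between them. Neighbours did not always have like folds. IFITM1 and IFITM3 are adjacent, with CM over IM at 1.71 (1.53 to 1.90) and 3.57 (2.96 to 4.34), and MX2 and MX1 are adjacent, at 1.65 (1.35 to 2.02) and 2.78 (2.54 to 3.04). IFIT1 and IFIT5 are adjacent too, with CMT over IM at 2.30 (1.91 to 2.77) and 1.35 (1.14 to 1.59). HERC5 and HERC6 lay closer, at 1.74 (1.36 to 2.22) and 1.85 (1.52 to 2.24) in CM over IM, as did GBP2 and GBP1.

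Genes above the members in the pathway gave median folds near 1. Of 23 interferon genes listed, 16 had a row, and 14 of these were at 0 in all 3 libraries, where 0 counts allow up to 0.227 CPM in CMT, 0.159 in CM and 0.181 in IM. IFNG, the gene of interferon gamma, had 0 counts in CMT, 3 in CM and 0 in IM, and IFNE, of the epithelial interferon epsilon, had 2, 1 and 3 counts in CMT, CM and IM. Of 14 compared genes of interferon receptors and proximal signalling, 0 were called in any comparison, with medians of 0.15 in CM over IM and -0.06 in CMT over IM on the log2 scale. Of all compared genes, 0.595% to 1.84% were called in each direction, so 0 of 14 lies near that share. SOCS1, an inhibitor of JAK kinases that interferon induces, had 45 counts in CMT, 100 in CM and 80 in IM. Its fold was 0.643 (0.442 to 0.923) in CMT over CM and 0.704 (0.477 to 1.03) in CMT over IM, the latter within counting error.

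In CM over IM, 1 of 19 compared genes of nucleic acid sensing was called higher, beside 1.2% of all compared genes. That gene was TREX1, an exonuclease that clears DNA from the cytosol, the only one of the 19 called in any comparison. It had 54 counts in CMT, 103 in CM and 27 in IM, a fold of 3.34 (2.17 to 5.31) in CM over IM and of 2.502 (1.55 to 4.13) in CMT over IM. The median log2 fold of that list was 0.06 in CM over IM and -0.07 in CMT over IM. TLR3, IRF3 and MAVS, a receptor, a transcription factor and an adaptor on the way to interferon, had CMT over IM at 0.883 (0.785 to 0.992), 0.974 (0.892 to 1.06) and 0.901 (0.815 to 0.997). UNC93B1, which carries nucleic acid receptors to endosomes, lay above IM in CMT at 1.51 (1.19 to 1.92), and 7 of the 19 genes lay above 0 in that comparison.

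Interferon-induced genes outside the members mostly lay above IM as well. Of 43 compared, 36 lay above 0 in CM over IM, beside 49.3% of all compared genes, and 37 in CMT over IM, beside 48.2%, with medians of 0.341 and 0.345 on the log2 scale. DDX60, a helicase that aids RNA sensing, was highest in CM over IM, at 2.27 (1.71 to 3.03), and had 143 counts in CMT, 181 in CM and 70 in IM. LAP3, a leucine aminopeptidase, went the other way and was the only one called: it had 232 CPM in CMT, 109 CPM in CM and 234 CPM in IM, lower in CM than in IM and higher in CMT than in CM. Of all compared genes, 1.52% were called lower in CM than in IM and 1.84% higher in CMT than in CM. B2M, the light chain of MHC class I, had CM over IM at 1.20 (1.17 to 1.23) and CMT over IM at 0.99 (0.962 to 1.02).

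**Figure D4:**
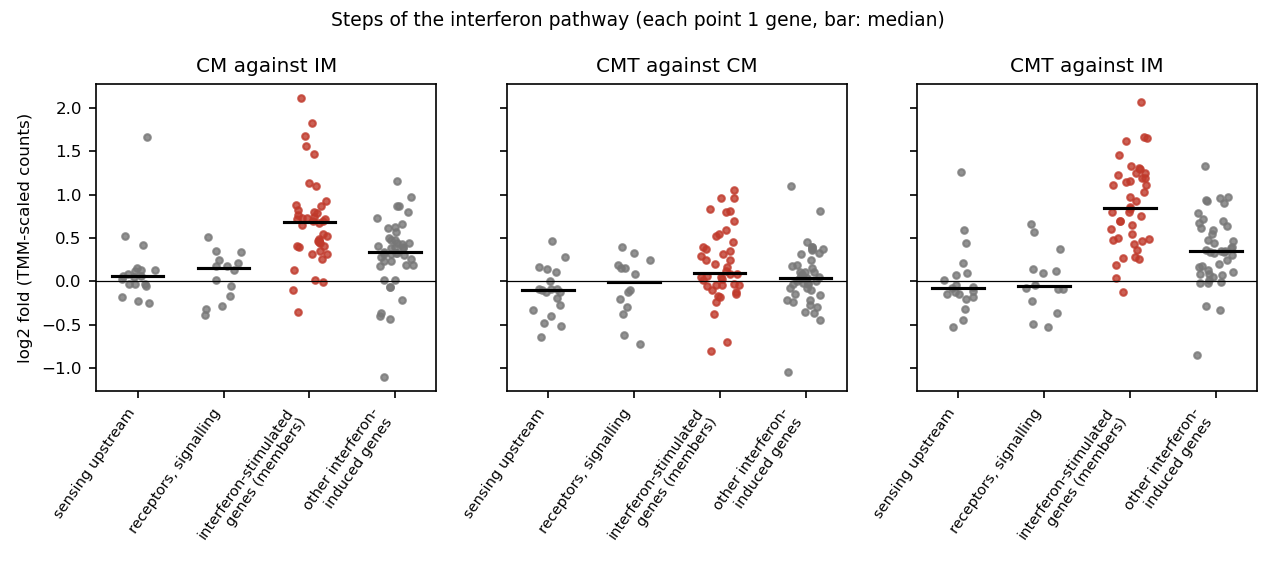
Log2 fold of each compared gene (points) and the median (bar) for nucleic acid sensing, interferon receptors and signalling, the 42 members (red) and other interferon-induced genes, in the 3 comparisons; the horizontal spread within a column has no meaning. The members' medians of 0.68 in CM against IM and 0.85 in CMT against IM lie above those of the other columns.

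Markers of immune cells gave these values beside the members. The sums cover every listed marker with a row, also those under 1 CPM. Medians, calls and counts above 0 cover the compared markers only. B and plasma cell markers, 5 of 10 compared, summed to 269 CPM in CMT, 269 CPM in CM and 221 CPM in IM, a sum led by SDC1, which epithelial cells also express. IGJ, the joining chain of antibodies, had 21.8 CPM in CMT, 102 CPM in CM and 16.1 CPM in IM, and was called higher in CM than in IM and lower in CMT than in CM. MZB1, a plasma cell gene, was called higher in CM than in IM, and CD79A, of the B cell receptor, lower in CMT than in CM. The 5 genes had a median log2 fold of 1.30 in CM over IM, -1.55 in CMT over CM and 0.28 in CMT over IM. T and NK cell markers, 15 of 16 compared, summed to 75.5 CPM in CMT, 98.6 CPM in CM and 70.4 CPM in IM, and CD247, a T cell receptor chain, was called lower in CMT than in CM. Macrophage and monocyte markers, 9 of 11 compared, followed the members' order, at 204 CPM in CMT, 175 CPM in CM and 135 CPM in IM, with 6 of 9 above 0 in CM over IM and 9 of 9 in CMT over IM, and 0 called. Neutrophil markers, 3 of 8 compared, summed to 15.3 CPM in CMT, 13.0 CPM in CM and 8.76 CPM in IM, also in the members' order. The 3 compared genes did not all follow that order. Their median log2 fold was -0.49 in CM over IM, with 1 above 0, and 0.27 in CMT over IM, with 2 above 0. Among them S100A12, a calcium-binding protein of neutrophils, had 87 counts in CMT, 5 in CM and 7 in IM and was called higher in CMT than in either other pool. Dendritic and plasmacytoid markers, 6 of 10 compared, summed to 41.9, 28.7 and 41.7 CPM in CMT, CM and IM, and CD83 was called higher in CMT than in CM. The B cell gene PAX5 was at 0 in CMT, and the neutrophil gene ELANE at 0 in CMT and in CM. The part of these cells in the members' levels was not tested.

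Stroma markers, 8 of 8 compared, had the reverse of the members' order in their sums, at 884 CPM in CMT, 956 CPM in CM and 1104 CPM in IM, with median log2 folds of -0.16 in CM over IM, -0.14 in CMT over CM and -0.25 in CMT over IM and 0 called. Ribosomal protein genes, 65 in all, summed to 27280 CPM in CMT, 32880 CPM in CM and 27010 CPM in IM, highest in CM; RPL31 and RPS16 were called higher in CM than in IM, and RPL31 also in CMT than in IM. Immediate early and heat shock genes, which can respond to tissue handling, had a median log2 fold of -0.35 in CM over IM, 0.84 in CMT over CM and 0.37 in CMT over IM over 19 genes. Of these 19, 4 were called higher in CMT than in CM, beside 1.84% of all compared genes. The folds were 7.76 (6.06 to 10.05) for ZFP36, 2.88 (2.615 to 3.17) for FOS, 2.55 (2.36 to 2.75) for EGR1 and 2.198 (2.075 to 2.33) for BAG3. Their counts in CMT, CM and IM were 413, 76 and 93 for ZFP36, 1276, 633 and 706 for FOS, 1812, 1016 and 1155 for EGR1 and 2960, 1923 and 3300 for BAG3. ZFP36 and FOS were also called higher in CMT than in IM. Their part in the members' levels was not tested.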

How the data were processed

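The authors deposited unnormalized counts, whole numbers per gene with unequal totals, in 1 column for each of 3 pooled libraries. Per the labels' protocols, RNA was extracted with TRIzol, pooled by group and made into libraries with an Ion Torrent total RNA kit, while the design text names an Illumina sequencer. FastQC is named in the submitters' processing notes. The aligner, counter, strand setting and build are not given in the sources used here. No positions are therefore given, and the assignment of reads between similar genes is unknown. An unnamed column with 4 values was not used.

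Counts were scaled with TMM (edgeR 4.0.16, R 4.3.3), and factors were 0.973 in CMT, 1.02 in CM and 1.01 in IM. Folds across all genes have exact Clopper-Pearson 95% intervals (scipy 1.17.1). These cover counting error only, since each group is 1 pooled library. Reads are not independent molecules, so the intervals may be too narrow even for that error. The limit for 0 counts is 3 counts. Log2 folds used a prior count of 2. With 1 library a group no test between conditions was made. The fold, interval and call were tested on simulated counts with known folds and counting error alone. That check cannot show how differences between pigs or pools would move the calls.

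The members and lists were chosen with earlier results of these data known. Genes named with values are those called, the highest and lowest of each role by CM over IM, SOCS1, the called genes of the other pathway lists, and further members and list genes added after their values were seen. A further gene that this rule takes is not reported here. Promoter and protein sequences were not analysed here. Alternatives were other scalings, filters, thresholds, prior counts and member sets.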

Additional observations from a re-analysis of the deposited data

How the results depend on the processing

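Of the alternatives to the calls, those of threshold and of membership moved counts by over 1.5 times. With the interval beyond 1.5-fold, members called higher were 10 for CM over IM, 2 for CMT over CM and 20 for CMT over IM, and 1 was called lower for CMT over CM. With the fold itself beyond 2-fold and no interval, 2 were higher in CMT against CM, both with few counts, and 19 in CMT against IM. Without the IFITM genes, 3 were called higher in CM against IM, since IFITM2 and IFITM3 are then missing. With ISG15, MX1, OAS1 and OAS2 left out of the sum, a choice made after seeing the data, the folds of the summed members were 1.53 for CM over IM, 1.07 for CMT over CM and 1.64 for CMT over IM. The other 59 counts stayed within 1.5 times, among them each one under scaling by total counts, median of ratios, upper quartile or without ribosomal RNA and mitochondrial genes, under no filter or one of 5 CPM, with a 99% interval, or with rows matched through RefSeq. Median log2 folds of the members ranged from 0.66 to 0.71 for CM over IM, from 0.03 to 0.17 for CMT over CM and from 0.80 to 0.86 for CMT over IM. Scaling by total counts moved the median of all compared genes to -0.07 in CMT against CM. No paired analysis was possible because each group is 1 pooled library, and for the same reason none could be left out. Depth limits OASL, ISG20, PSMB9 and BST2, whose intervals are wide.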
